A study of Mus musculus with 24 samples.

Results

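The insulin-like growth factor (IGF) axis was followed across mouse embryonic fibroblasts (MEFs) lacking Myc, Mlx or both. Its 10 members here were Igf1, Igf1r, Irs1, the binding protein genes Igfbp2, Igfbp3, Igfbp4, Igfbp5, Igfbp6 and Igfbp7, and Pappa, taken by symbol from the 41710 genes of each expression table. The series held 24 polyadenylated RNA libraries from primary MEFs and from MEFs immortalized with SV40 T-antigen, with 3 libraries for each of 4 genotypes in each kind of cell. MycKO, MlxKO and DKO cells came from embryos with floxed Myc, floxed Mlx or both and a CreER transgene driven by the ROSA26 promoter, and excision was induced with 500 nM 4-hydroxytamoxifen (4OHT). WT denotes MEFs whose loci were intact, and ethanol was the vehicle. T-antigen and blasticidin resistance were delivered to the immortalized lines by lentivirus. The study described primary MycKO and DKO cells as growth-arrested when their RNA was profiled, whereas the immortalized knockout lines kept proliferating. Cultures came from embryos of days 14 to 16, and each pooled at least 6 embryos. The study pooled and froze the embryo cells of each group and re-established cultures from those stocks. It used a single WT line as control in most cases. The libraries of a genotype are called biological replicates in a legend, and at which step they were separated is not said. The p-values below measure the spread between these libraries. They cannot separate genotype from line of origin where a knockout and its WT control came from different lines. Immortalized WT controls were kept without 4OHT, so that exposure to 4OHT and gene loss cannot be told apart there, although knockout cells were taken off 4OHT for some days ahead of later work. For the primary WT libraries, 4OHT or vehicle is not given in the sources used here.

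IGF-I and IGF-II are secreted growth factors that signal through the receptor tyrosine kinase encoded by Igf1r, and the adaptor Irs1 passes that signal to PI3 kinase and Akt. IGF-binding proteins hold the ligands outside the cell, where they can withhold, store or deliver them, and the metalloproteinase PAPP-A, encoded by Pappa, releases ligand by cutting Igfbp4 and a few relatives. Fibroblasts are a major source of these proteins, and several binding proteins are known from the secretions of arrested or senescent fibroblasts. Myc and Mlx are members of related networks of transcription factors that pair with Max or with Mlx partners and bind E-boxes.

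Libraries held 15986856 to 20966163 reads on genes in the primary table and 17541112 to 19851300 in the immortalized table, so that 3 reads corresponded to 0.145 to 0.196 CPM (counts per 1000000 reads). Myc stood at 89.8 to 100.1 CPM in primary WT libraries and 19.9 to 26.8 CPM in the primary MycKO and DKO libraries, and Mlx at 20.53 to 26.0 CPM in WT and 9.73 to 13.97 CPM in MlxKO and DKO. In immortalized cells Mlx fell in MlxKO (log2 fold change -0.71) but did not pass the test in DKO (limma -0.44, adjusted p = 0.0694), where it stood at 14.5 to 18.0 CPM against 20.51 to 25.1 CPM in WT, and passed without library 4, described next (-0.52, adjusted p = 0.0339). The study itself reported excision of both genes by qPCR and loss of their proteins by immunoblotting, in primary and in immortalized cells. Which exons the remaining reads covered was not examined. Immortalized WT library 4 stood apart, with correlations across genes of 0.943 to 0.950 to the other WT libraries, which correlated at 0.992 with each other and at 0.965 to 0.976 with the DKO libraries. Its Myc level was 177 CPM against 39.9 and 48.1 CPM in the other WT libraries. Calls of the members against immortalized WT are therefore also given without it, resting then on 2 WT libraries. The 8 fibroblast markers summed to 34487 to 37025 CPM in primary WT, 44015 to 45981 CPM in MycKO and 46513 to 46864 CPM in DKO, where 7 and 6 of the 8 rose. In immortalized cells they summed to 19246 to 27014 CPM in WT and 13562 to 18284 CPM in MycKO and MlxKO. The part of this shift in the results was not tested. In any library the 4 epithelial markers summed to at most 5.21 CPM.

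Regions just upstream of the start sites are shown because Myc and Mlx complexes bind E-boxes. The 4 printed belong to Igfbp2, the member with an E-box there, to Igfbp7, with GC boxes alone, and to Igfbp3 and Igfbp5, whose windows hold neither motif. Each is the 250 bases before the start of the canonical GENCODE transcript of the gene on GRCm39, and other start sites were not searched. They are printed from 5′ to 3′ on the strand of the gene, and capitals mark an E-box (CACGTG) or a GC box (GGGCGG or its reverse complement CCGCCC). Igfbp2 lies at chr1:72863399-72863648 on the plus strand, Igfbp7 at chr5:77555915-77556164, Igfbp3 at chr11:7164180-7164429 and Igfbp5 at chr1:72914044-72914293, all 3 of these on the minus strand.
Igfbp2: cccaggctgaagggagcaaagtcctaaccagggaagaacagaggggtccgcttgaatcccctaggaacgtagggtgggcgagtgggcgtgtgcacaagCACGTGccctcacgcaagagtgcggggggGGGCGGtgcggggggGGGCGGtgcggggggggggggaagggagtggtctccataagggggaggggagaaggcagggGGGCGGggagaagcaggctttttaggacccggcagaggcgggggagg
Igfbp7: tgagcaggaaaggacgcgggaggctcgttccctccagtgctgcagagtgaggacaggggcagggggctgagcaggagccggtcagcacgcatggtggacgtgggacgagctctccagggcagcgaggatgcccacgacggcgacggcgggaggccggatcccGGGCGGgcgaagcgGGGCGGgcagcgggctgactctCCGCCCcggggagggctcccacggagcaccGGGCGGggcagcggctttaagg
Igfbp3: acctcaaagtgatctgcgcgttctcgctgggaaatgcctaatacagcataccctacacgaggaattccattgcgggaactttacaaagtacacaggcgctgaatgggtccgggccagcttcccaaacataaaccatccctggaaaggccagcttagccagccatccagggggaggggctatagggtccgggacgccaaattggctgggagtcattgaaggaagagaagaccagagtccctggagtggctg
Igfbp5: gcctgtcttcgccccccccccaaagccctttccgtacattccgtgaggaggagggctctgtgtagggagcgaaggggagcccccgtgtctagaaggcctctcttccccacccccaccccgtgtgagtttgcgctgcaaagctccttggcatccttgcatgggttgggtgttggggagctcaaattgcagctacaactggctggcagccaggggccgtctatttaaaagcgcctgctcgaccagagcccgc
Igfbp2 was the only 1 of the 10 members with an E-box in this window, 152 bases before the start, whereas 6.26% of 21757 protein-coding genes had one. GC boxes stood in 5 of the 10 windows (Igf1r, Igfbp2, Igfbp7, Irs1 and Pappa), against 36.3% of the same genes. The other 5 windows held neither motif on either strand. Both motifs were searched in that window alone, and their presence or absence there is a description of letters, not of binding. Igfbp2 and Igfbp5 are neighbours whose ends face each other across 5456 bases of chromosome 1. Igfbp3 lies likewise 3539 bases from Igfbp1 on chromosome 11.

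Per kilobase of exon, Igfbp2 was the most abundant member in primary WT MEFs, with a mean of 191 CPM per kb. Igfbp7 followed at 121 CPM per kb, Igfbp4 at 57.1 CPM per kb and Igfbp5 at 40.8 CPM per kb, and the libraries of neighbouring genes in this order did not overlap. Pappa, Igfbp6 and Igfbp3 came next at 19.4, 18.3 and 15.8 CPM per kb, and these neighbours overlapped. By this measure Igf1r, Irs1 and Igf1 were lowest at 10.3, 7.49 and 4.42 CPM per kb. In immortalized WT cells the order differed, with Igfbp4 first at 52.6 CPM per kb and Igf1 last at 0.659 CPM per kb, and 8 of the 9 neighbouring pairs overlapped.

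**Figure D1:**
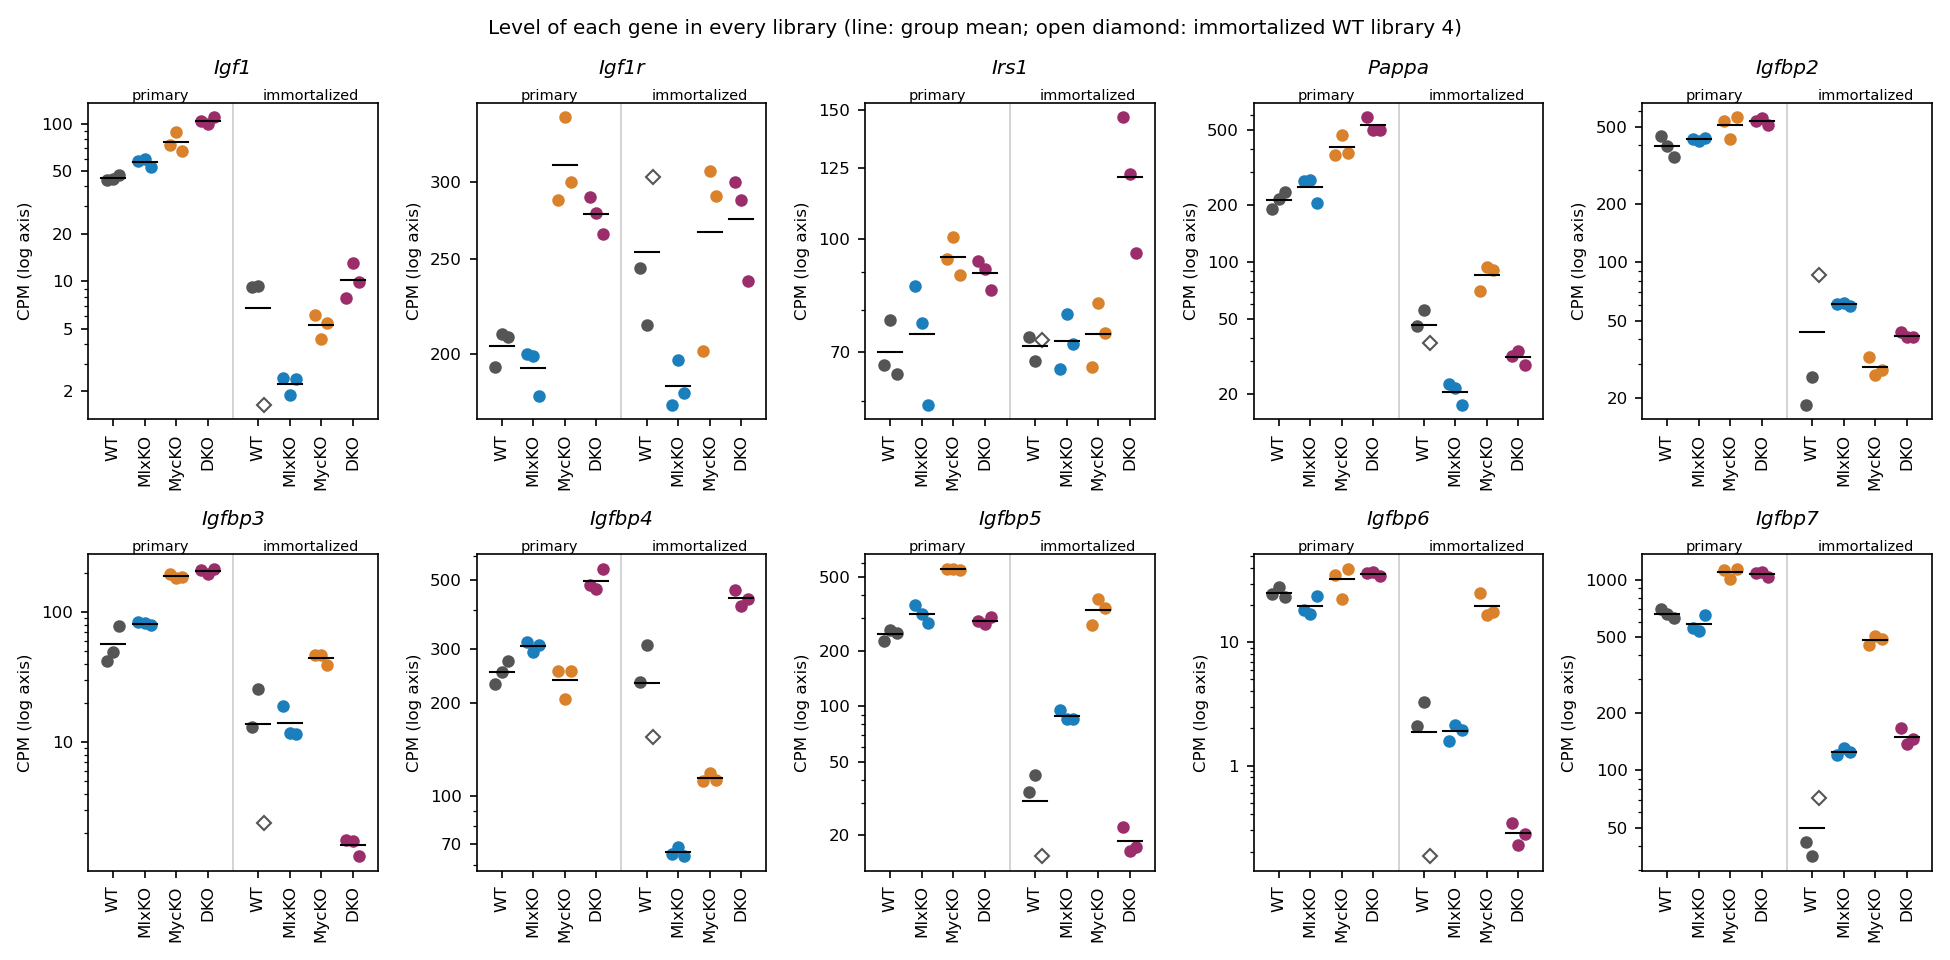
Level of each of the 10 genes in CPM (log axis, a different range in each panel) in all 24 libraries, with primary cells on the left and immortalized cells on the right of each panel. Points are libraries, lines are group means of 3 libraries, and the open diamond is immortalized WT library 4, which had the lowest WT value for Igf1, Igfbp3, Igfbp4, Igfbp5, Igfbp6 and Pappa and the highest for Igf1r, Igfbp2 and Igfbp7.

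In primary MEFs, loss of Myc was accompanied by higher transcripts of ligand, receptor, adaptor, protease and most binding proteins. Of the 10 members, 8 rose in MycKO, whereas 42.3% of the 13101 genes tested were called and 20.4% were called higher. In DKO all 10 rose, where 49.5% of genes were called in either direction and 3146 of the 13101 were called higher. In MlxKO 3 members rose, Igf1, Igfbp3 and Igfbp5, against 8.88% called and 3.75% called higher. The median log2 fold change of the 10 members was 0.67 in MycKO, 0.60 in DKO and 0.17 in MlxKO, where the median over all genes lay at 0.00. The libraries of 7 members in MycKO, 10 in DKO and 4 in MlxKO lay wholly above WT, where 48.1%, 60.8% and 28.3% of all genes had no overlap in either direction. The members were chosen with earlier results of these data known, so these counts describe them and are no test of the axis.

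Igf1, the ligand, was measured in primary WT libraries at 43.7, 44.5 and 47.6 CPM, in MlxKO at 53.4, 58.4 and 59.9 CPM, in MycKO at 67.4, 72.8 and 89.1 CPM, and in DKO at 99.6, 104 and 110.3 CPM. The 4 genotypes did not overlap, and the levels stepped up in that order. Relative to WT the log2 fold change was 0.33 ± 0.089 (SE) in MlxKO, 0.73 ± 0.089 in MycKO and 1.19 ± 0.089 in DKO, with limma adjusted p of 0.0264, 5.6e-06 and 2.26e-08. DKO also exceeded MycKO (0.46, adjusted p = 0.00123) and MlxKO (0.86, adjusted p = 7.91e-07). The interaction, the difference of DKO from the sum of the single knockouts, was 0.13 ± 0.13 (adjusted p = 0.597).

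Igf1 is a macrophage product in many tissues, and macrophage markers differed between these groups. All 8 markers of the list (Ptprc, Csf1r, Adgre1, Cd68, Laptm5, Lyz2, Tyrobp and Fcer1g) fell in MycKO and in DKO against WT, and 6 of them were higher in DKO than in MycKO, as Igf1 was. Their sum ranged from 274 to 524 CPM in WT, 301 to 371 CPM in MlxKO, 47.7 to 70.0 CPM in MycKO and 94.3 to 219 CPM in DKO. In immortalized cells 6 of the 8 lay below 1 CPM in every library. Whether fewer macrophages or less RNA per macrophage underlay these values cannot be told apart in bulk RNA, and their part in the Igf1 levels was not tested. Chondrocyte markers also moved, their sum (5 genes) ranging from 600 to 786 CPM in primary WT and 153 to 232 CPM in the primary knockouts. Endothelial markers (5 genes) summed to 13.9 to 15.5 CPM in primary WT and 3.52 to 8.83 CPM in the knockouts, and skeletal muscle markers (5 genes) to 76.6 to 85.6 CPM in WT, 77.2 to 83.3 CPM in DKO and 29.4 to 43.0 CPM in MlxKO and MycKO. Of the 5 muscle genes, 4 (Myod1, Myog, Myh3 and Actc1) lay below 1 CPM in every primary library, so that sum was nearly all Des. Pecam1 and Cdh5 of the endothelial list and Col9a1 and Matn1 of the chondrocyte list also lay below 1 CPM throughout. Whether these cell types were present, and their part in the results, was not tested. All 10 genes of a proliferation list fell in MycKO and DKO and 9 fell in MlxKO, with sums of 1138 to 1185 CPM in WT and 540 to 573 CPM in DKO, and the part of growth state was not tested.

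**Figure D2:**
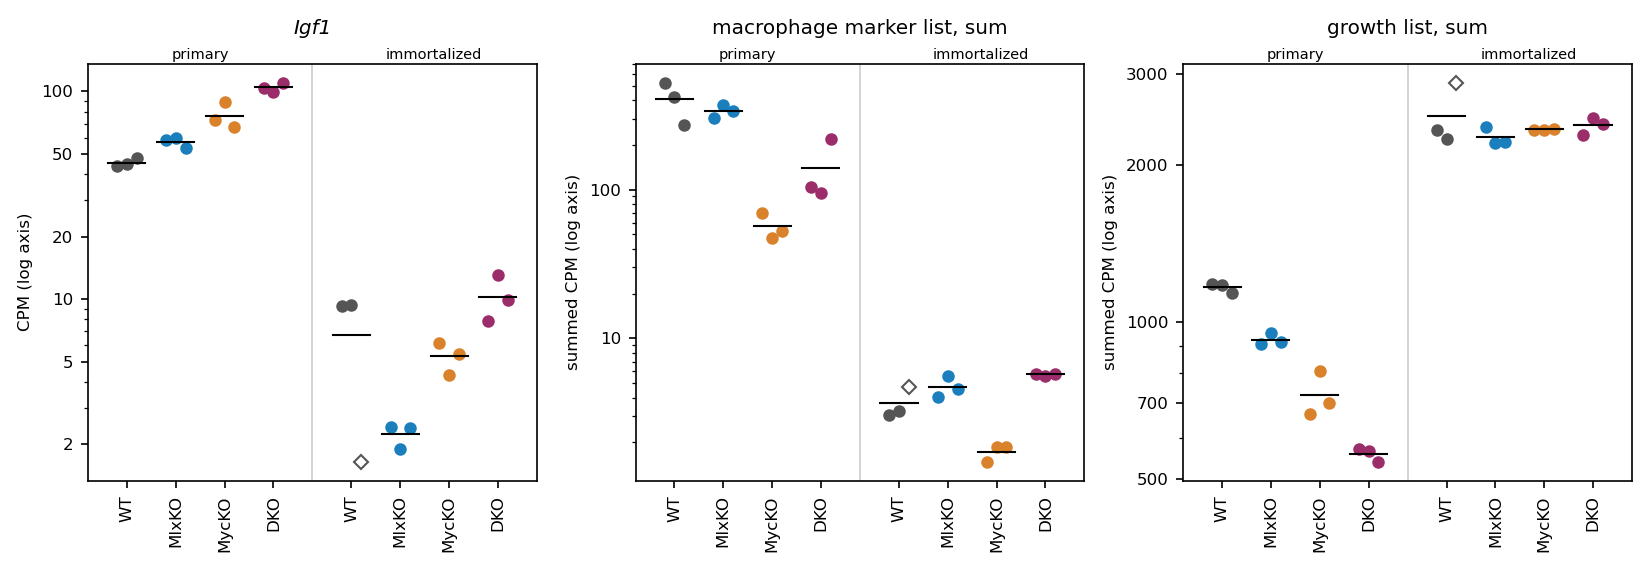
Igf1 (left), the sum of 8 macrophage markers (middle) and the sum of 10 proliferation genes (right) in every library, in CPM on log axes. In primary cells Igf1 was highest in DKO, where both sums lay below every WT library. In immortalized cells the macrophage sum stayed at or below 5.80 CPM in every library.

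Igf1r, the receptor, and Irs1, its adaptor, rose by smaller amounts in the primary cells that lacked Myc. Igf1r was measured at 193.7 to 209.6 CPM in WT, 287.8 to 349.8 CPM in MycKO and 265.2 to 289.6 CPM in DKO, and neither knockout overlapped WT. The log2 fold changes were 0.61 ± 0.073 (adjusted p = 4.84e-06) and 0.45 ± 0.073 (adjusted p = 9.02e-05). Irs1 changed by 0.43 ± 0.11 in MycKO (adjusted p = 0.00372) and 0.36 ± 0.11 in DKO (adjusted p = 0.0106). In MlxKO both overlapped WT, at -0.08 for Igf1r and 0.07 for Irs1, and neither was called.

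Igfbp3, which carries most IGF in the circulation, showed the largest primary change among the members. Its WT libraries read 41.9, 49.6 and 77.7 CPM, MlxKO 78.8, 82.0 and 83.9 CPM, MycKO 182, 187 and 197 CPM, and DKO 196, 209.8 and 216 CPM. MycKO and DKO were 3.34 and 3.67 times WT by mean, and they overlapped each other. The log2 fold changes were 1.77 ± 0.14 (adjusted p = 7.66e-08) and 1.91 ± 0.14 (adjusted p = 2.29e-08). MlxKO gave 0.57 ± 0.14 (adjusted p = 0.0181), with its lowest library only just above the highest WT library. That call was lost with DESeq2 (adjusted p = 0.0716), with a robust variance prior in limma (adjusted p = 0.0541), and so also where limma, edgeR and DESeq2 were all required. Igfbp7, a relative that binds IGFs weakly, was measured at 628 to 697 CPM in WT, 1007 to 1142 CPM in MycKO and 1035 to 1092 CPM in DKO. It changed by 0.72 and 0.69, and MlxKO overlapped WT at -0.19.

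Igfbp5 and Igfbp4 were the primary members whose double knockout differed from the sum of the single ones. Igfbp5, a binding protein that also sits in the matrix, read 226, 251 and 258 CPM in WT, 282, 316 and 355 CPM in MlxKO, 546, 552 and 557 CPM in MycKO, and 279.4, 288 and 305 CPM in DKO. MycKO thus stood above every other library, and DKO overlapped MlxKO. The log2 fold change of 1.17 ± 0.076 in MycKO (adjusted p = 8.19e-09) was 0.25 ± 0.076 in DKO (adjusted p = 0.0124), and the interaction was -1.29 ± 0.11 (adjusted p = 5.24e-07). Igfbp4, an inhibitory binding protein and the main PAPP-A substrate, went the other way. It read 232, 251 and 274 CPM in WT, 293, 309 and 315 CPM in MlxKO, 206, 254 and 255 CPM in MycKO, and 468, 481 and 545 CPM in DKO. MycKO overlapped WT (-0.08 ± 0.086, adjusted p = 0.459) while DKO stood above every other library (0.98 ± 0.086, adjusted p = 1.23e-07), and the interaction was 0.78 ± 0.12 (adjusted p = 0.000279). These were the only members called for the interaction, 2 of 10 where 13.5% of genes were called. The call of Igfbp5 in DKO was lost without WT library 1 (adjusted p = 0.0738) and without DKO library 15 (adjusted p = 0.0595). The interaction of Igfbp3 (-0.44) was called without WT library 3 (-0.69, adjusted p = 0.000246), and that of Igfbp6 (0.53) without MycKO library 11 (0.69, adjusted p = 0.0428).

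Igfbp2, a binding protein abundant in embryonic tissue, and Igfbp6, which prefers IGF-II, both rose in primary DKO. Igfbp2 rose by 0.36 ± 0.092 in MycKO (adjusted p = 0.00477), where 1 library overlapped WT, and by 0.43 ± 0.092 in DKO (adjusted p = 0.00092). Igfbp6 was called in DKO alone (0.51 ± 0.16, adjusted p = 0.014). In MycKO its libraries read 22.5, 35.6 and 39.9 CPM against 23.2 to 28.0 CPM in WT, giving 0.32 with adjusted p = 0.115, and without MycKO library 10 the change was 0.56 (adjusted p = 0.00052).

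Pappa, the protease, followed the order seen for Igf1. Its libraries read 193, 216 and 235 CPM in WT, 205, 271 and 273 CPM in MlxKO, 371, 379 and 469.7 CPM in MycKO, and 502, 504 and 587 CPM in DKO. MycKO and DKO lay wholly above WT, and MlxKO overlapped it. The log2 fold changes were 0.92 ± 0.11 in MycKO (adjusted p = 6.92e-06) and 1.31 ± 0.11 in DKO (adjusted p = 1.06e-07). DKO exceeded MycKO by 0.39 (adjusted p = 0.0199), a call that was lost without MycKO library 9 (adjusted p = 0.0821), MycKO library 11 (0.0738) or DKO library 13 (0.105).

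Between knockouts, 4 members differed between primary DKO and MycKO, where 21.5% of genes were called. Igf1, Igfbp4 and Pappa were higher in DKO and Igfbp5 was lower. Against MlxKO, DKO was higher for 9 members, all but Igfbp5, where 49.1% of genes were called and 23.3% called higher. The call of Irs1 there (0.29, adjusted p = 0.0332) was lost without MlxKO library 7 (adjusted p = 0.21), DKO library 13 (0.103) or DKO library 14 (0.0840), and Igfbp5 was called there without MlxKO library 7 (-0.21, adjusted p = 0.0300). In MlxKO against WT the count of members called fell from 3 to 1 without WT library 1, WT library 2, MlxKO library 5 or MlxKO library 6, each of which ended the calls of Igf1 and Igfbp3, and rose to 5 without MycKO library 10, where Igfbp4 (0.28, adjusted p = 0.00698) and Igfbp6 (-0.35, adjusted p = 0.0278) were added. Igfbp4 was also called without WT library 3 (0.34), and Igfbp7 without MlxKO library 7 (-0.27, adjusted p = 0.0299). These comparisons share control libraries, so their counts are not independent of each other.

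**Figure D3:**
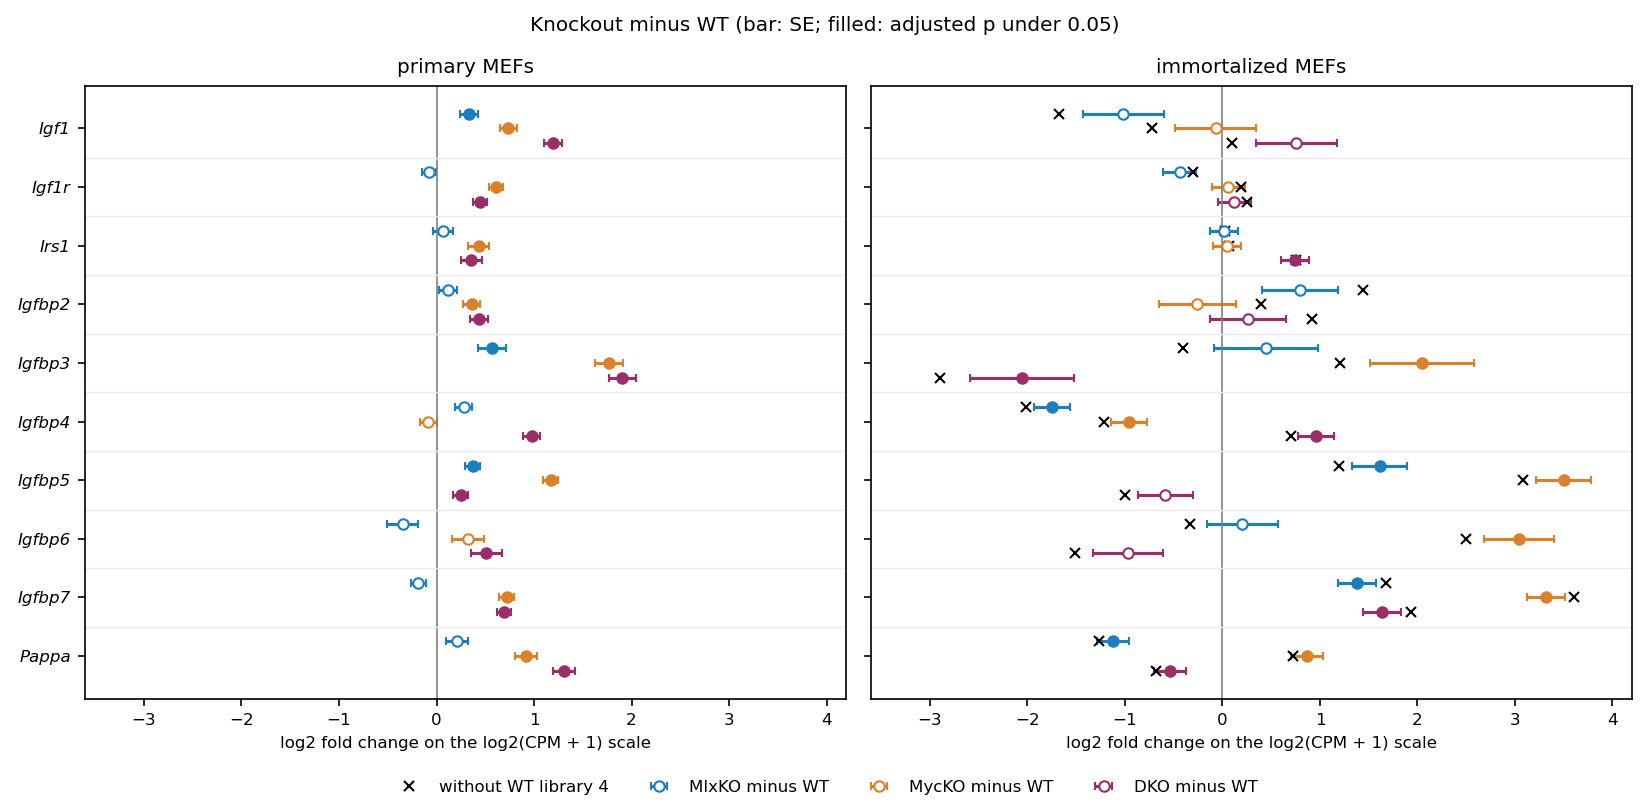
Log2 fold change of each knockout against WT on the log2(CPM + 1) scale for the 10 members, in primary (left) and immortalized (right) cells. Circles are estimates with SE bars from 3 libraries a group, filled where adjusted p was under 0.05, and crosses are the immortalized estimates without WT library 4. All 10 DKO circles lie right of 0 in primary cells, whereas in immortalized cells they lie on both sides.

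In immortalized MEFs the members moved in both directions. The study reported that most immortalized MycKO cells had become tetraploid or pseudo-tetraploid, whereas DKO cells stayed euploid. Ploidy and genotype cannot be told apart in comparisons with immortalized MycKO, and the part of ploidy was not tested. Of the 10 members, 6 were called in MycKO (5 higher and 1 lower, against 48.0% of 12880 genes), 4 in MlxKO (2 higher and 2 lower, against 38.9%) and 5 in DKO (3 higher and 2 lower, against 18.9%). Without WT library 4 the counts were 8, 6 and 8, where 54.0%, 46.9% and 22.0% of 12855 genes were called. The libraries of 6, 5 and 5 members did not overlap WT, where 51.1%, 49.1% and 37.1% of all genes did not. At most 2 of the 10 proliferation genes were called in any knockout against WT, with or without library 4, and their sum stayed between 2213 and 2883 CPM. Chondrocyte markers (5 genes) summed to 5.83 to 9.56 CPM in MycKO and 71.5 to 152 CPM in WT, and adipocyte markers (4 genes) to 3.003 to 4.84 CPM in MlxKO and 16.9 to 36.5 CPM in WT. Endothelial markers (5 genes) summed to 14.4 to 19.1 CPM in MycKO and 3.10 to 5.05 CPM in WT. Adipoq, Plin1 and Cfd lay below 1 CPM in every immortalized library, so the adipocyte sum was nearly all Pparg. So did Pecam1, Cdh5 and Emcn of the endothelial list and Matn1 of the chondrocyte list. Whether these cell types were present, and their part in the results, was not examined further.

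Igfbp5, Igfbp6 and Igfbp7 were far higher in immortalized MycKO than in any other genotype. Igfbp5 read 15.3 (library 4), 34.1 and 42.4 CPM in WT, 84.9, 85.5 and 95.0 CPM in MlxKO, 274, 339.5 and 383 CPM in MycKO, and 16.4, 17.3 and 22.2 CPM in DKO. MycKO was thus 10.9 times WT by mean, and DKO lay below both other WT libraries. The log2 fold change was 3.499 ± 0.28 in MycKO (adjusted p = 1.88e-06) and 1.61 ± 0.28 in MlxKO (adjusted p = 0.00139), and 3.08 and 1.19 without library 4. In DKO it was -0.58 (adjusted p = 0.16), and -1.003 without library 4 (adjusted p = 0.000488). With all libraries DESeq2 called it (-0.71, adjusted p = 0.0474).

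Igfbp7 read 35.3, 41.9 and 71.3 (library 4) CPM in WT, 119.6, 125 and 131 CPM in MlxKO, 453, 487 and 504 CPM in MycKO, and 137, 146 and 167 CPM in DKO. All 3 knockouts lay above every WT library. The log2 fold changes were 1.38, 3.32 and 1.64 in MlxKO, MycKO and DKO, each called with and without library 4 (1.67, 3.61 and 1.93 without it). Igfbp6 read 0.183 (library 4), 2.11 and 3.27 CPM in WT, 1.60, 1.94 and 2.15 CPM in MlxKO, 16.8, 17.6 and 25.3 CPM in MycKO, and 0.226, 0.276 and 0.341 CPM in DKO. The DKO libraries and WT library 4 held only 3 to 6 reads of it, against 306 to 494 reads in the MycKO libraries. The MycKO change was 3.04 ± 0.36 (adjusted p = 4.0e-05; 2.497 without library 4), on a log2(CPM + 1) scale that understates changes of low genes. In DKO it was -0.97 (adjusted p = 0.0786), and -1.51 without library 4 (adjusted p = 0.000122). On whole reads of all libraries edgeR gave -2.69 (adjusted p = 0.0223) and DESeq2 -2.72 (adjusted p = 0.000408).

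Igfbp3 rose in immortalized MycKO and fell in immortalized DKO. It read 2.37 (library 4), 13.2 and 25.6 CPM in WT, 11.5, 11.7 and 19.1 CPM in MlxKO, 39.5, 46.3 and 46.3 CPM in MycKO, and 1.33, 1.75 and 1.76 CPM in DKO. MycKO lay above and DKO below every WT library. The changes were 2.05 ± 0.53 (adjusted p = 0.0078) and -2.06 ± 0.53 (adjusted p = 0.0202), and 1.21 and -2.90 without library 4, both called. The DKO call was lost without WT library 2 (adjusted p = 0.0642) or DKO library 13 (0.0621), 14 (0.0515) or 15 (0.0642), each time with library 4 still in the fit, and with only WT and DKO fitted (0.108). In MlxKO the estimate was 0.44, and -0.40 without library 4, and was not called in either fit.

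Igfbp4 took the opposite course. It read 156 (library 4), 233 and 309 CPM in WT, 64.0, 65.2 and 68.6 CPM in MlxKO, 112, 113 and 119 CPM in MycKO, and 413, 434 and 465 CPM in DKO. No group overlapped another. Igfbp4 fell by 1.75 ± 0.18 in MlxKO (adjusted p = 8.47e-05) and by 0.96 ± 0.18 in MycKO (adjusted p = 0.00121) on the log2 scale, and rose by 0.96 ± 0.18 in DKO (adjusted p = 0.00445). Without library 4 these were -2.01, -1.22 and 0.70, each called. The DKO call was lost with only WT and DKO fitted (adjusted p = 0.0551).

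Pappa rose in immortalized MycKO and fell in MlxKO and DKO. Its libraries read 37.5 (library 4), 46.0 and 56.2 CPM in WT, 17.6, 21.5 and 22.8 CPM in MlxKO, 70.3, 91.5 and 94.3 CPM in MycKO, and 28.8, 31.8 and 33.8 CPM in DKO. No knockout overlapped WT. The changes were -1.13 ± 0.16 in MlxKO (adjusted p = 0.000569), 0.87 ± 0.16 in MycKO (adjusted p = 0.00115) and -0.53 ± 0.16 in DKO (adjusted p = 0.0408), and -1.27, 0.72 and -0.68 without library 4. The DKO call was lost without WT library 2 or 3, MlxKO library 6, MycKO library 11 or any of the 3 DKO libraries (adjusted p 0.0560 to 0.126), with only WT and DKO fitted (0.0991) and with no filter on low values (0.0636), and without library 4 it had adjusted p = 0.00619. For all members together, the DKO count of 5 fell to 3 without WT library 2 or any DKO library and rose to 8 without WT library 4.

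Igf1 was low in every immortalized library. It read 1.64 (library 4), 9.25 and 9.32 CPM in WT, 1.90, 2.40 and 2.42 CPM in MlxKO, 4.28, 5.46 and 6.13 CPM in MycKO, and 7.85, 9.89 and 13.01 CPM in DKO. With library 4 no knockout was called against WT by limma, MlxKO standing at -1.02 (adjusted p = 0.0692), whereas edgeR (-1.57, adjusted p = 0.0235) and DESeq2 (-1.58, adjusted p = 0.00334) called MlxKO. Without it, MlxKO fell by 1.67 ± 0.20 (adjusted p = 2.06e-05) and MycKO fell by 0.72 ± 0.20 (adjusted p = 0.00694) on the log2 scale, and DKO stood at 0.10 (adjusted p = 0.748). DKO exceeded MlxKO by 1.77 with all libraries (adjusted p = 0.00751). The interaction of 1.84 ± 0.59 (adjusted p = 0.0219) was 2.49 without library 4. That call was lost without WT library 2 (1.52, adjusted p = 0.0555), MlxKO library 6 (1.76, adjusted p = 0.0508) or DKO library 14 (1.67, adjusted p = 0.0574).

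Igfbp2 gave no call against WT with all libraries, its WT libraries reading 18.4, 25.6 and 86.4 (library 4) CPM. MlxKO read 59.7, 60.6 and 61.8 CPM, MycKO 26.3, 27.9 and 32.6 CPM, and DKO 41.0, 41.1 and 43.4 CPM, so that every knockout library lay above the other WT libraries and below library 4. Without library 4 the changes were 1.44 (adjusted p = 2.89e-06), 0.39 (adjusted p = 0.0267) and 0.91 (adjusted p = 0.000333), and the sign for MycKO turned from -0.26. Igf1r was not called by limma in any knockout against WT with or without library 4, with values of 177 to 308 CPM over all libraries. In MlxKO it lay below every WT library (-0.44, adjusted p = 0.0586) and was called without WT library 3 (-0.56, adjusted p = 0.0304) or MycKO library 9 (adjusted p = 0.0224), and by DESeq2 with all libraries (-0.45, adjusted p = 0.0377). Irs1 read 68.0, 72.7 and 73.5 CPM in WT and 95.7, 123 and 147 CPM in DKO. It rose in DKO (0.74 ± 0.14, adjusted p = 0.00478) and stood at 0.02 in MlxKO and 0.05 in MycKO. Without library 4 these were 0.75 (adjusted p = 0.00321), 0.031 and 0.065.

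The 2 immortalized lines without Myc differed from each other in 7 members, where 29.4% of genes were called. Relative to MycKO, DKO was lower in Igfbp3 (-4.11 ± 0.53, adjusted p = 0.000108), Igfbp5 (-4.08 ± 0.28, adjusted p = 6.39e-07), Igfbp6 (-4.01 ± 0.36, adjusted p = 5.59e-06), Igfbp7 (-1.68) and Pappa (-1.40), and higher in Igfbp4 (1.92) and Irs1 (0.69). Without library 4, where 40.9% of genes were called, 9 members differed, Igf1 (0.82) and Igfbp2 (0.52) being added as higher in DKO. Relative to MlxKO, 8 members differed, where 30.1% of genes were called. Igf1, Igf1r, Igfbp4, Pappa and Irs1 were higher in DKO and Igfbp3, Igfbp5 and Igfbp6 lower. That count was 5 without MlxKO library 7 or DKO library 14, which ended the calls of Igf1r, Igfbp6 and Pappa, and 9 without WT library 4 (43.2% of genes), which enters only the shared estimate of spread and added Igfbp2 (-0.53). Igf1r was also lost without MlxKO library 5 or 6 or DKO library 13, and Igfbp6 without MlxKO library 6 or DKO library 13 or 15 (adjusted p 0.0551 to 0.0910).

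The test of whether the effects of Myc and Mlx loss added on the log2 scale, the Myc-by-Mlx interaction, called 7 immortalized members where 47.4% of genes were called. The differences of DKO from the sum of the single knockouts were -5.70 ± 0.40 for Igfbp5 (adjusted p = 9.11e-07), -4.55 ± 0.75 for Igfbp3 (adjusted p = 0.000529), -4.21 ± 0.51 for Igfbp6 (adjusted p = 6.4e-05), -3.06 ± 0.28 for Igfbp7 (adjusted p = 7.52e-06) and 3.67 ± 0.26 for Igfbp4 (adjusted p = 1.03e-06). Without library 4 they were -5.28, -3.71, -3.67, -3.35 and 3.93. Igfbp3, Igfbp5, Igfbp6 and Igfbp7 thus lay below the sum and Igfbp4 above it. Irs1 also lay above it (0.67, adjusted p = 0.017; 0.66 without library 4). Without library 4, 8 members were called where 56.7% of genes were, Igfbp2 (-0.92) being added.

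**Figure D4:**
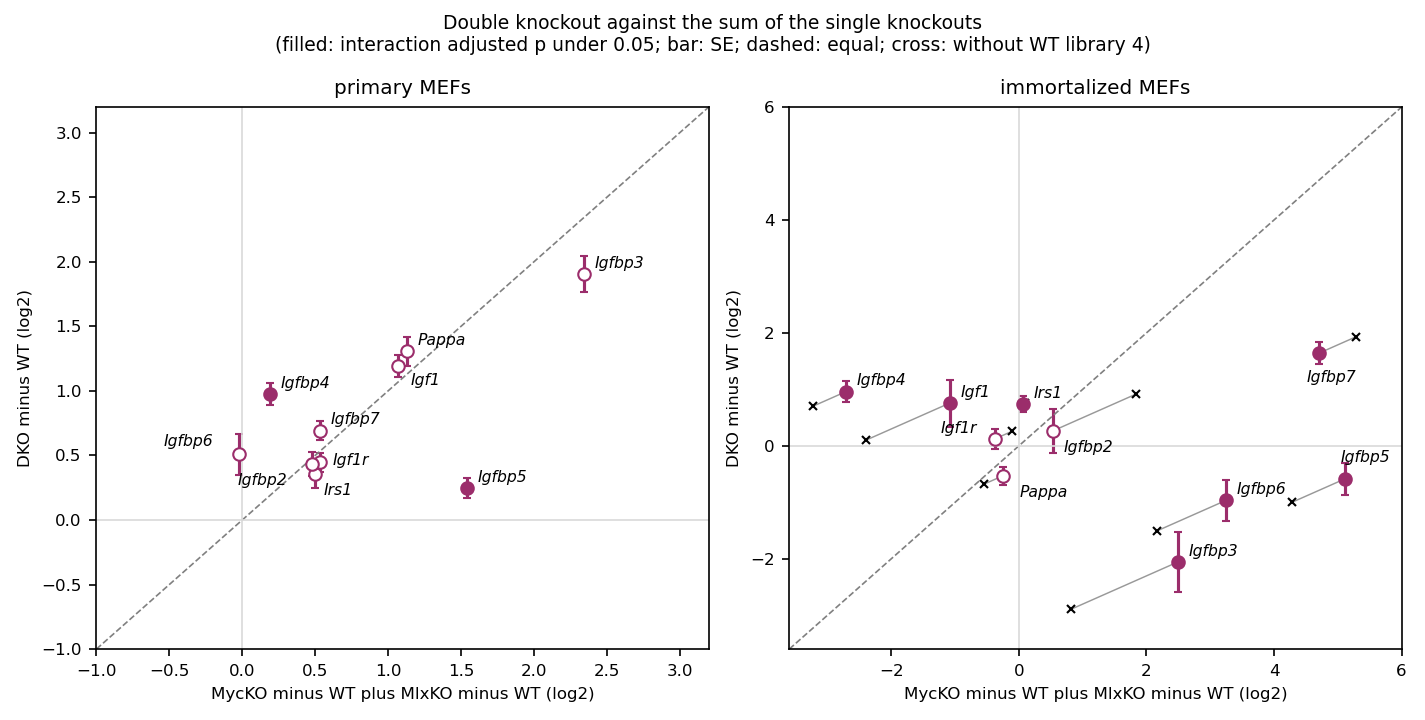
Log2 fold change of DKO against WT (vertical, with SE) plotted against the sum of the MycKO and MlxKO changes (horizontal) for the 10 members, in primary (left) and immortalized (right) cells. Filled points had an interaction adjusted p under 0.05, the dashed line marks equality, and crosses joined by grey lines are the immortalized values without WT library 4. In both panels Igfbp4 lies above the line and Igfbp5 below it.

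The primary and immortalized tables were scaled separately and were not tested against each other. Side by side, Igfbp5 had a negative and Igfbp4 a positive interaction in each table, at -1.29 and 0.78 in primary cells and -5.70 and 3.67 in immortalized cells. Igfbp5, Igfbp7, Igfbp3 and Pappa rose in MycKO in each table. In DKO, Igfbp4 (0.98 in primary and 0.96 in immortalized cells), Igfbp7 (0.69 and 1.64) and Irs1 (0.36 and 0.74) were called higher in each table. Igfbp3 went opposite ways in DKO, changing by 1.91 in primary and -2.06 in immortalized cells, as did Pappa, by 1.31 and -0.53. Igfbp5 rose in MlxKO in each table, by 0.37 and 1.61. In MlxKO, Igfbp4 stood at 0.28 in primary cells (adjusted p = 0.0542) and fell by 1.75 in immortalized cells.

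Summed per kilobase of exon, the 6 binding protein genes reached 444 ± 18.6 CPM per kb in primary WT (SD, n = 3), 473 ± 13.9 in MlxKO, 668 ± 59.9 in MycKO and 698 ± 2.73 in DKO. MycKO and DKO did not overlap WT, and these sums are a description of the levels already given. Igfbp2 made up 36.6% to 43.7% of that sum by group mean in primary cells and Igfbp7 22.6% to 30.0%. In immortalized cells the sums were 92.9 ± 12.5 CPM per kb in WT, 87.1 ± 1.95 in MlxKO, 210.3 ± 10.1 in MycKO and 150.3 ± 9.84 in DKO. The leading gene differed by genotype. Igfbp4 made up 56.6% in WT and 65.8% in DKO, Igfbp2 made up 33.5% in MlxKO, and Igfbp7 made up 42.0% in MycKO with Igfbp5 at 26.2%. In WT library 4 Igfbp2 was the largest share at 44.6%, with Igfbp4 at 37.8%.

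**Figure D5:**
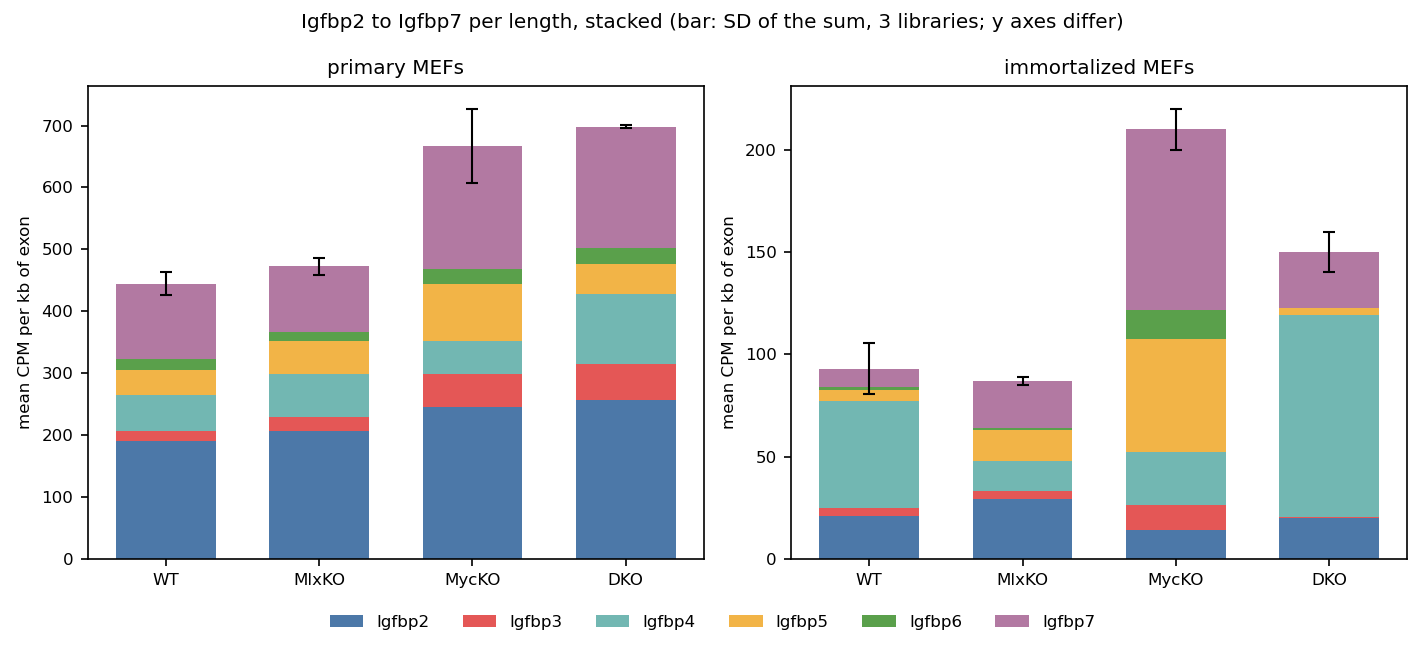
Mean CPM per kb of exon of Igfbp2 to Igfbp7, stacked for each genotype, in primary (left) and immortalized (right) cells, with the SD of the sum over 3 libraries. The vertical scales differ. Igfbp2 is the largest part in every primary genotype, while in immortalized cells the largest part is Igfbp4 in WT and DKO, Igfbp2 in MlxKO and Igfbp7 in MycKO.

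Of 20 further genes of the axis, 14 were tested in primary cells, where 8 rose and 4 fell in MycKO, 2 rose and 2 fell in MlxKO, and 6 rose and 4 fell in DKO. Of all genes 42.3%, 8.88% and 49.5% were called in these comparisons. Igf2, the other ligand, rose in MycKO from 433 to 504 CPM in WT to 743 to 756 CPM (0.70 ± 0.066, adjusted p = 4.44e-07) and in DKO to 700.1 to 765 CPM (0.65), and it rose in MlxKO by 0.32. Adam9, a protease that can cut binding proteins, rose by 0.67 in MycKO, and Pappa2, a relative of Pappa, by 1.22 in DKO. Stc1 and Stc2, secreted inhibitors of PAPP-A, both fell, Stc1 by 0.69 in MycKO and Stc2 by 1.07 in DKO on the log2 scale, while Pappa rose there. In immortalized cells Stc1 and Pappa both rose in MycKO, and Stc2 and Pappa both fell in DKO. A link between these genes was not tested. The RNA-binding protein gene Igf2bp1 fell by 0.58 in DKO. Insr, the insulin receptor, rose by 0.37 in MycKO and 0.45 in DKO, and Igf2r, which clears IGF-II, rose by 0.21 in MycKO (adjusted p = 0.0230).

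In immortalized cells 13 of the 20 were tested, and 5 rose and 2 fell in MycKO, 1 rose and 2 fell in MlxKO, and 3 rose and 2 fell in DKO, against 48.0%, 38.9% and 18.9% of all genes called. Without library 4 these were 5 and 4, 4 and 4, and 3 and 4, against 54.0%, 46.9% and 22.0%. Igf2 rose from 22.3 to 29.6 CPM in WT to 98.7 to 130.4 CPM in MycKO (2.10 ± 0.14, adjusted p = 3.84e-07; 2.20 without library 4) and stood at 38.4 to 41.6 CPM in DKO, with an interaction of -1.73 (-1.84 without library 4). Stc1 rose by 1.09 in MycKO with and without library 4. Adam12, a protease that cuts Igfbp3 and Igfbp5, rose by 2.22 in MycKO, where WT library 4 read 117 CPM and the other WT libraries 12.8 and 18.9 CPM, and by 3.16 without library 4. Stc2 fell by 1.67 in DKO on the log2 scale (0.99 without library 4), library 4 reading 44.1 CPM against 8.88 and 11.3 CPM. Insr fell by 0.66 in MycKO and Igf2bp3 by 0.64 in DKO on the log2 scale, and by 0.76 and 0.65 without library 4. Igf2r was not called in any knockout against WT with all libraries, and stood at -0.92 in MycKO without library 4 (adjusted p = 0.000625).

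By likeness of profile across the 24 libraries, each centred on its WT mean, the genes nearest to the 3 most variable members were sought among 11784 genes. Ednrb, an endothelin receptor, and Podn, a matrix proteoglycan, lay nearest to Igfbp3, at root mean square differences of 0.67 and 0.85 on the log2 scale. Slit3, a secreted guidance protein, and Kif1a, a kinesin, lay nearest to Igfbp5, at 0.45 and 0.50. Shc2, an adaptor, and Hoxc9, a homeobox gene, lay nearest to Igfbp6, at 0.48 and 0.50. Slit3 rose from a mean of 421 CPM in primary WT to 998 CPM in primary MycKO and from 20.6 CPM to 207 CPM in immortalized cells, with 17.9 CPM in immortalized DKO. The likeness was incomplete, as Slit3 stayed at 809 CPM in primary DKO, where Igfbp5 had a mean of 291 CPM against 552 CPM in MycKO. In primary MlxKO Slit3 stood at 417 CPM, near WT, whereas Igfbp5 stood at 318 CPM against 245 CPM in WT. With Pearson r in place of the difference, Ednrb remained among the 2 nearest to Igfbp3 and Slit3 among those to Igfbp5, at r of 0.90 and 0.93 over the 24 libraries, whereas Hs3st3b1 and Slit3 were nearest to Igfbp6. The libraries share genotype groups, so this is a description with no test.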

How the data were processed

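RNA was sequenced from triplicate libraries of each genotype of primary and immortalized MEFs. Reads were mapped by the authors in CLC Genomics Workbench against GRCm39, and 1 table per kind of cell was deposited. The deposited values are CPM that had been scaled between libraries (a signal rather than strict CPM, with sums of 915691 to 1077213 per library), and 100% were whole multiples of the value of 1 read within a tolerance of 0.1, so whole reads were recovered. Columns carry a library number, not the replicate number of the labels.

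Genes at 1 CPM or more in at least 3 of the 12 libraries of a table were tested with limma 3.58.1 (trend) on log2(CPM + 1), all 4 genotypes in 1 fit per table, with Benjamini-Hochberg adjustment over the table and calls at adjusted p under 0.05. Of the 10 members, 10 passed that filter in each table. An exact permutation test of 3 against 3 libraries cannot go below 0.1 and was not used. Alternatives were another pseudocount, filters, scalings, subsets, a robust prior, edgeR 4.0.16 and DESeq2 1.42.0 on whole reads, their intersection, a fold threshold, and leaving out each library. On simulated counts for MycKO against WT (12915 primary and 12631 immortalized genes), limma recovered 67.7% and 75.5% of 1.5-fold changes and 100% and 99.0% of 3-fold changes. Those counts gave every gene the same dispersion, changed few genes and held no library standing apart. The recovery is therefore a check of the procedure and no measure of power in the real libraries.

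Exon lengths, start sites and sequences came from GENCODE on GRCm39, which placed 41181 of 41710 genes. The motif share is over 21757 protein-coding genes. The members and lists were chosen with earlier results of these data known. Named genes outside the members were at most 3 that rose and 3 that fell most in each list and table, with Igf2, Igf2r and Insr, and the 2 nearest profiles of each of the 3 most variable members. Marker genes named beside Igf1 are the whole list.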

Additional observations from a re-analysis of the deposited data

Results flagged for a closer look

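The Myc-by-Mlx interaction, which compares the effect of losing Mlx in Myc-deficient cells with that in Myc-intact ones, was past the threshold for 2 members in primary cells, Igfbp4 (0.78) and Igfbp5 (-1.29). In immortalized cells it was past the threshold for 7, namely Igf1 (1.84), Igfbp3 (-4.55), Igfbp4 (3.67), Igfbp5 (-5.70), Igfbp6 (-4.21), Igfbp7 (-3.06) and Irs1 (0.67). Of all genes 13.5% were called for the interaction in primary cells and 47.4% in immortalized cells. Each of the 7 immortalized calls of members held without WT library 4.

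Other results were singled out because every library of one group lay on one side of its comparison group in primary cells and on the other side in immortalized cells. The difference between the kinds of cell was not tested in these cases, and how many of all genes met the same rule was not counted. In MlxKO against WT this was Igfbp4, at 0.28 in primary and -1.75 in immortalized cells. In DKO against WT it was Igfbp3, at 1.91 and -2.06, and Pappa, at 1.31 and -0.53. In DKO against MycKO it was Pappa, at 0.39 and -1.40. In DKO against MlxKO it was Igfbp2, at 0.31 and -0.53, Igfbp3, at 1.33 and -2.50, and Igfbp6, at 0.85 and -1.17. The opposite values of Igfbp4 in primary MlxKO and of Igfbp2 in immortalized DKO against MlxKO were not called by limma fitted to all 4 genotypes with all libraries. Fitted to only the groups compared, limma called both (adjusted p = 0.0225 and 0.000577), and with a robust variance prior it called that of Igfbp4 (adjusted p = 0.0479).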

How the results depend on the processing

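A pseudocount of 0.1, a mean of at least 5 CPM and median-ratio scaling left every call and direction of the members unchanged. Counts of members called moved by over 1.5 times under few settings. A limit of 1 on the size of the log2 fold change left 2, 0, 3, 1, 2 and 1 members in the primary MycKO, MlxKO and DKO comparisons with WT, DKO against MycKO, DKO against MlxKO and the interaction, and 2 and 5 members in immortalized DKO against WT and against MlxKO. No filter on low values left 1 member in primary MlxKO, and fitting only the groups compared left 2 in immortalized DKO against WT, without Igfbp3, Igfbp4 and Pappa. No filter also ended the calls of Pappa in primary DKO against MycKO and immortalized DKO against WT, Irs1 in primary DKO against MlxKO and Igfbp6 in immortalized DKO against MlxKO. The cause was not tested. Igfbp2, not called, changed sign with edgeR and DESeq2 in immortalized DKO against WT (-0.037 and -0.054, from 0.27) and in the immortalized interaction (0.023 and 0.037, from -0.27). Scaling by library totals moved the median of all genes by 0.15 in immortalized MlxKO against WT, by -0.16 in DKO against MlxKO and the interaction, and by -0.10 in primary DKO against MlxKO. That scaling also moved the median by -0.095 in primary MycKO and by -0.077 in primary DKO against WT. No member changed sign under it, but it ended the calls of Igfbp5 in primary DKO against WT, Igfbp2 and Irs1 in primary DKO against MlxKO, Pappa in immortalized DKO against WT, Igf1r and Pappa in immortalized DKO against MlxKO, and Irs1 in the immortalized interaction, and added Igfbp4 in primary MlxKO against WT and Igfbp5 in primary DKO against MlxKO. Under it the share of calls that were higher changed, over all genes, from 48.3% to 31.3%, 42.2% to 53.7% and 48.5% to 37.2% in primary MycKO, MlxKO and DKO against WT, from 47.3% to 32.4% in primary DKO against MlxKO, and in immortalized cells from 49.0% to 70.0% in MlxKO against WT, 53.98% to 29.1% in DKO against MlxKO and 49.9% to 37.2% in the interaction. Leaving out 1 library at a time, the members called ranged from 1 to 5 in primary MlxKO against WT, 3 to 8 in immortalized DKO against WT and 5 to 9 in immortalized DKO against MlxKO. Estimates that changed sign when 1 library was left out were all uncalled with every library present. In primary cells they ranged from -0.14 to 0.017 for Igfbp4 in MycKO and -0.049 to 0.22 for Irs1 in MlxKO against WT, from -0.038 to 0.15 for Igfbp2, -0.054 to 0.35 for Igfbp6 and -0.083 to 0.0081 for Igfbp7 in DKO against MycKO, and from -0.16 to 0.043 for the Igfbp2 interaction. In immortalized MycKO against WT they ranged from -0.72 to 0.26 for Igf1, -0.057 to 0.25 for Igf1r, -0.69 to 0.39 for Igfbp2 and -0.019 to 0.12 for Irs1. In immortalized MlxKO against WT they ranged from -0.40 to 1.09 for Igfbp3, -0.34 to 0.59 for Igfbp6 and -0.044 to 0.078 for Irs1. The immortalized ranges were -0.17 to 0.91 for Igfbp2 in DKO against WT, -0.13 to 0.18 for Igf1r in DKO against MycKO and -0.92 to 0.17 for the Igfbp2 interaction. No paired analysis was possible because the columns carry library numbers that the labels do not tie to replicate numbers. Igfbp6 in immortalized DKO, at 4 to 6 reads a library, is limited by depth.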

Other observations

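Genes that carry the IGF signal inside the cell were described as a list of 30, all tested in both tables. In primary cells 5 rose and 5 fell in MycKO, 2 rose and 3 fell in MlxKO and 8 rose and 4 fell in DKO, where 42.3%, 8.88% and 49.5% of all genes were called, and the median log2 fold change of the list was 0.10 in MycKO and 0.13 in DKO. Socs3, a feedback inhibitor of cytokine and insulin signals, rose by 0.79 in DKO (adjusted p = 0.000156), Pik3r1, the main regulatory subunit of PI3 kinase, by 0.56 in DKO, and the transcription factor Foxo4 by 0.52 in MycKO. Pik3cd, the PI3 kinase subunit best known from leukocytes, fell by 0.88 in MycKO and Pik3cb by 0.64 on the log2 scale, and the macrophage markers fell there too, whose part in Pik3cd was not tested. Socs2, which restrains growth hormone signalling, fell by 0.67 in MlxKO.

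In immortalized cells 7 rose and 11 fell in MycKO, 7 rose and 10 fell in MlxKO, and 1 rose and 2 fell in DKO, against 48.0%, 38.9% and 18.9% of all genes called. Without WT library 4 these were 9 and 7, 8 and 8, and 1 and 5, against 54.0%, 46.9% and 22.0%. Socs2 rose by 1.94 in MycKO (adjusted p = 5.78e-07), from 5.36 to 6.50 CPM in WT to 22.9 to 28.0 CPM, and stood at 4.86 to 5.46 CPM in DKO. Socs3 rose by 1.16 and Pik3r2 by 0.97 in MlxKO. Pik3r3 fell by 1.40 in MycKO on the log2 scale, and Foxo1, a transcription factor that Akt holds inactive, fell by 0.94 in MlxKO. Without library 4 the Socs2, Socs3, Pik3r2, Pik3r3 and Foxo1 estimates were 1.87, 1.20, 0.92, -1.71 and -1.14, each called.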
